A study of Mus musculus with 8 samples.

Results

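The mitochondrial carrier family, encoded by the Slc25a genes, was compared between whole spleens of mice lacking Nix (Nix_KO) and wild-type spleens (WT). Members were all probe sets whose gene symbol starts with Slc25a, leaving out Slc25a37 and Slc25a38. This gave 42 of the 18193 genes that the annotation names by probe sets not shared between genes. These 42 were read by 91 of the 45101 probe sets on the array. The animals of both genotypes were 8 weeks old and received no treatment. Each genotype had 4 arrays, each made from unpooled spleen RNA. They carry the numbers 10, 2, 3 and 6 for Nix_KO and 3, 4, 5 and 6 for WT, as in the labels. Strain, sex and the deleted stretch of the gene are not given in the sources used here. Nix, the product of Bnip3l, is an outer membrane protein of mitochondria through which immature red cells remove these organelles. According to its title, the series concerns apoptosis and the formation of red cells.

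SLC25 proteins sit mostly in the inner mitochondrial membrane and exchange metabolites between the cytosol and the matrix: adenine nucleotides, phosphate, keto acids, amino acids, cofactors and iron. A few family members lie in peroxisomes or in the outer mitochondrial membrane. Red cell precursors, which the mouse spleen makes beside lymphocytes and myeloid cells, depend on such carriers for haem synthesis and lose their mitochondria at the end of maturation.

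All values are log2 intensities, and changes are Nix_KO minus WT. A probe set was tested with limma where 4 or more of the 8 arrays reached a log2 intensity of 5, and it was called where its Benjamini-Hochberg adjusted p over all tested probe sets was under 0.05. Array medians over all probe sets were 28.85 to 30.61 on the linear intensity scale. Over the tested probe sets the median log2 intensity averaged 7.56 in Nix_KO and 7.69 in WT. Signal was present in all 3 probe sets of Bnip3l, which are shared with a pseudogene. Their log2 changes lay between -0.50 and 0.58, and 0 of the 3 were called by limma (adjusted p of 0.117 to 0.164), so they did not check the genotype labels. Spleen markers were present. Tlx1 read 6.09 to 7.41 in Nix_KO and 7.21 to 7.35 in WT. Nkx2-3 read 6.31 to 7.003 in Nix_KO and 6.73 to 7.14 in WT. Of the 4 tested spleen markers 3, these among them, were not called over genes and 1, Madcam1, was lower in Nix_KO. The change of Madcam1 was -1.18 ± 0.21 (SE, n = 4 each; limma adjusted p = 0.00276 over genes), and its groups did not overlap. The arrays Nix_KO 3, WT 3 and WT 5 stood apart by genes of the exocrine pancreas. The mean log2 intensity of the 13 tested pancreas markers was 12.97 in Nix_KO 3, 12.01 in WT 3 and 9.93 in WT 5, against 5.35 to 7.38 in the other 5 arrays. Counts of called carriers and list genes are therefore given with and without these 3 arrays.

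Of the 91 member probe sets, 65 from 33 genes passed the filter, and 57 of the 65 were at or above 5 in all 8 arrays. Of these 65, 18 were called (27.7%), 10 higher and 8 lower in Nix_KO. Over all tested probe sets limma called 30.0%, with 12.5% higher and 17.6% lower, so the share of members called was near that of the array as a whole. In whole spleen, fewer cells of a type and less RNA per cell cannot be told apart. With the brightest probe set standing for each gene and adjustment over all 11027 genes, 12 of 33 Slc25a genes were called (36.4%), 4 higher and 8 lower. The background over all genes was 38.3%, with 14.2% higher and 24.1% lower. The groups did not overlap for 13 of 33 carrier genes (39.4%), against 39.6% of all genes. The median change was -0.09 over the 33 carrier genes and -0.15 over all genes tested. With each array centred on the median of its tested probe sets these medians were 0.04 and -0.02, and the higher share of all called probe sets was 52.4%, against 41.6% without centring.

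Without the arrays Nix_KO 3, WT 3 and WT 5, 4 of the 65 member probe sets were called, 3 of Slc25a39 and 1 of Slc25a51, all of them higher. Over all probe sets 3.09% were called in these 5 arrays. By gene, 4 of 33 carriers were called, 2 higher and 2 lower, against 15.3% of all genes. The other 14 of the 18 called probe sets were not called in these 5 arrays. Of the 18 changes 0 turned sign, which for 16 was settled beforehand, since their groups did not overlap.

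**Figure D1:**
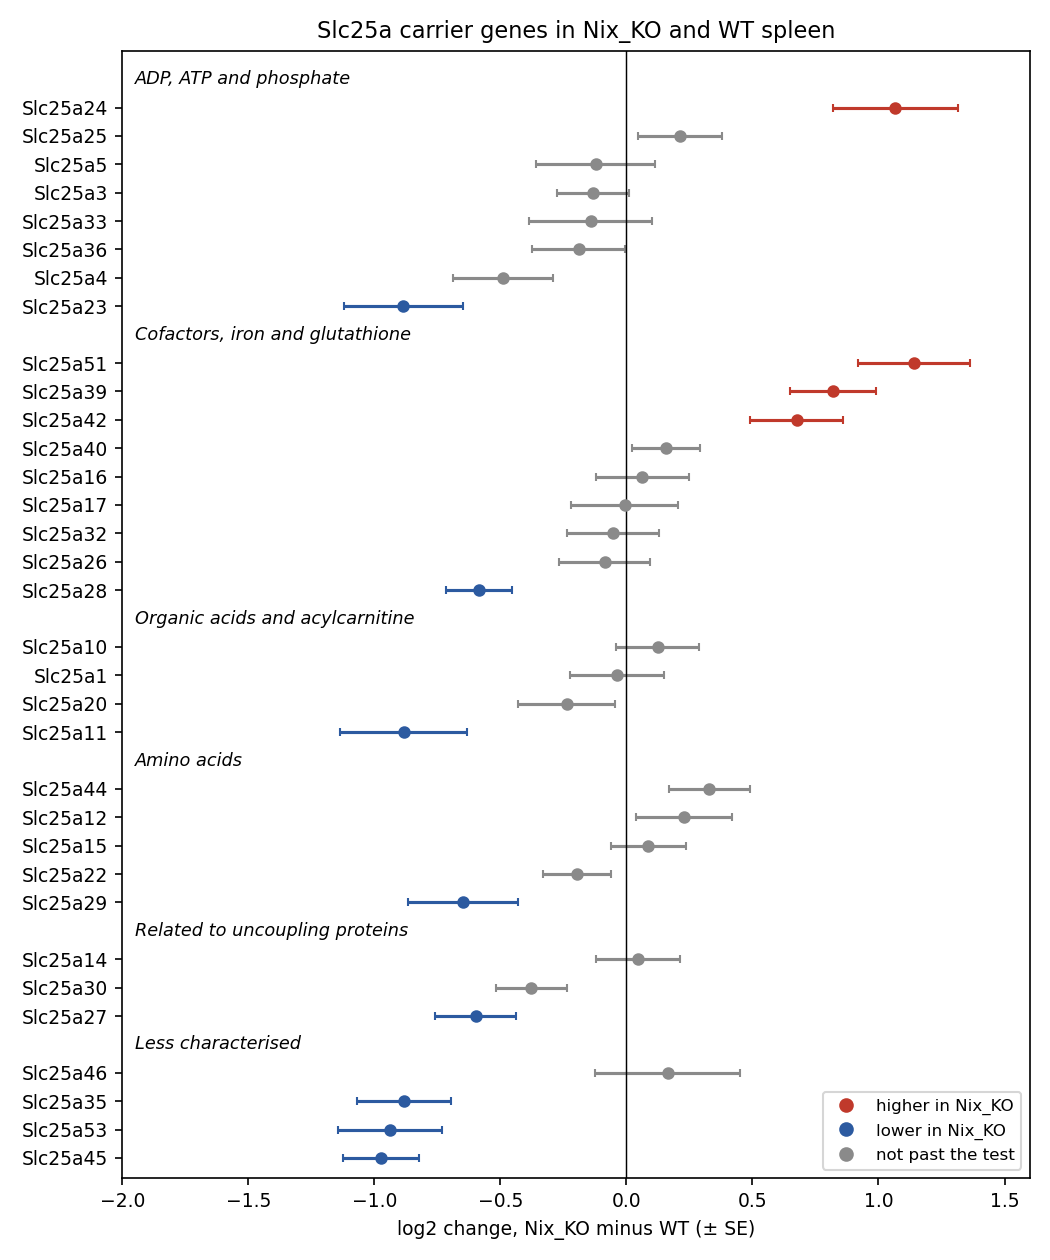
Log2 change of the 33 tested Slc25a genes by class of substrate, with the change on the horizontal axis, points for the brightest probe set of each gene and bars for the standard error. Slc25a51, Slc25a24, Slc25a39 and Slc25a42 lie on the higher side at 1.14, 1.07, 0.82 and 0.68, and the 8 genes called lower lie between -0.97 and -0.59.

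The stretches before the starts of called carriers are shown for every called gene that has exactly 1 window among the promoters used here. Slc25a24, Slc25a39 and Slc25a42 were higher, and Slc25a11, Slc25a28, Slc25a29 and Slc25a45 were lower. Each line gives the 250 bases before the annotated start, 5′ to 3′ in the direction of the gene, from RefSeq on GRCm38.p6. Capitals mark CCNCNCCC or its reverse complement on either strand, the letters of a KLF site, where N is any base and matches may overlap.
Slc25a24, chr3:109122899-109123148, plus strand: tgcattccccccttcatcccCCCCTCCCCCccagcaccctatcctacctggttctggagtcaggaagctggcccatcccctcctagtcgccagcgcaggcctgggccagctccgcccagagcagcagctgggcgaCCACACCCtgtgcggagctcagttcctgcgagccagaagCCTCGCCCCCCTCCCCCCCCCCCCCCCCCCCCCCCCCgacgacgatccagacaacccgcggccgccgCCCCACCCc
Slc25a39, chr11:102407518-102407767, minus strand: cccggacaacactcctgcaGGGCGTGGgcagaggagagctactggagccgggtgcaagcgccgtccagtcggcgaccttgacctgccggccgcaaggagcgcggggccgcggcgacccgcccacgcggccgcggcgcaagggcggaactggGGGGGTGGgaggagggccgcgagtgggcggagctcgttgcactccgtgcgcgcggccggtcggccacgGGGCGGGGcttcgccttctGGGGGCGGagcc
Slc25a42, chr8:70212282-70212531, minus strand: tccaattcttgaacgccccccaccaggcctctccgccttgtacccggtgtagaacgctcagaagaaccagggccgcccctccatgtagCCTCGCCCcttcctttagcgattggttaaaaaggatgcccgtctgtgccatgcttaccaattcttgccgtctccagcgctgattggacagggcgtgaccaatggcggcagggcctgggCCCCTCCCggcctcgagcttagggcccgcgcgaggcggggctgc
Slc25a11, chr11:70647040-70647289, minus strand: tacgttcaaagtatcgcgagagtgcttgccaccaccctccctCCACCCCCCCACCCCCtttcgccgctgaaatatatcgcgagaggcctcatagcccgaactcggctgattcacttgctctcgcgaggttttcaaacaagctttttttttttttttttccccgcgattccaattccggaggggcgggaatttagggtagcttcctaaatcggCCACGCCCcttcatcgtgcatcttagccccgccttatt
Slc25a28, chr19:43674882-43675131, minus strand: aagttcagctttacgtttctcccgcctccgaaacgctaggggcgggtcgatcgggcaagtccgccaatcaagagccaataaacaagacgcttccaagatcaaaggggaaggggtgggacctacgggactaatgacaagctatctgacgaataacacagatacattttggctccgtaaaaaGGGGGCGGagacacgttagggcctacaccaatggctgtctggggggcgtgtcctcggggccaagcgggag
Slc25a29, chr12:108835877-108836126, minus strand: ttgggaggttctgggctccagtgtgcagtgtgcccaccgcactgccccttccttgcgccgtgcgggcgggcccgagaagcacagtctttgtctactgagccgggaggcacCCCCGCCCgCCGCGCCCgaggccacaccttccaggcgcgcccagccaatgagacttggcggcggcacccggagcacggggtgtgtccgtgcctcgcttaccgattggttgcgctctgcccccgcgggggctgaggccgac
Slc25a45, chr19:5877572-5877821, plus strand: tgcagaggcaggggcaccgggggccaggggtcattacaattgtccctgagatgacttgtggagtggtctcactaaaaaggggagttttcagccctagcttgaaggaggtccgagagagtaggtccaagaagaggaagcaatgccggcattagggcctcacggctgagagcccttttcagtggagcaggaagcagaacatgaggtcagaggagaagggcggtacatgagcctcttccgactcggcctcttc

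The windows searched ran from 250 bases before to 50 bases after the start. Among the higher genes Slc25a39 held 4 matches and Slc25a42 held 2, and the 25 overlapping matches of Slc25a24 lay mostly in a run of C. Among the lower genes Slc25a11 held 4, Slc25a29 held 2, Slc25a28 held 1 and Slc25a45 held 0. Slc25a23 and Slc25a53, also lower, have several windows each, with 5 matches in each window of Slc25a23 and 3 and 4 in those of Slc25a53. A gene was counted where any of its windows held the letters. The KLF letters occurred in 3 of 3 higher, 5 of 6 lower and 14 of 17 uncalled carrier genes. Over all 27025 genes with a window, tested on the arrays or not, the share was 51.9%. Base composition was not matched. GATA letters (AGATAA or TGATAA, both strands) occurred in 0 of 3 higher, 2 of 6 lower and 3 of 17 uncalled genes, against 21% of all genes. Letters of the palindromic NRF1 site were found in 0 of 3, 0 of 6 and 1 of 17, against 5.19%. Those of an ETS site (CCGGAAG) were found in 0 of 3, 0 of 6 and 5 of 17, against 9.93%. The called genes Slc25a51, Slc25a35 and Slc25a27 are not among the windows used here.

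Among the 9 tested carriers of cofactors, iron and glutathione, 3 were higher in Nix_KO, 1 was lower and 5 were not called. Over all genes 14.2% were higher and 24.1% lower, and these shares apply to the class counts below too. The classes have 3 to 9 tested genes each, and no class was tested against these shares. Slc25a51 carries NAD into the matrix of human mitochondria. Its brightest probe set read 12.48, 11.90, 12.93 and 12.76 in Nix_KO 10, 2, 3 and 6, against 11.52, 11.29, 11.53 and 11.15 in WT 3, 4, 5 and 6. Every Nix_KO array was above every WT array. The change was 1.14 ± 0.23 (SE, n = 4 each), a 2.21-fold difference with limma adjusted p = 0.00666. The other probe sets of Slc25a51 were also called, with changes of 1.53 (limma adjusted p = 0.0037) and 1.54 (0.0126).

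Slc25a39 is needed for glutathione to enter mitochondria and has been tied to haem synthesis. All of its 5 probe sets were higher in Nix_KO. The brightest read 14.08, 14.19, 14.47 and 14.20 in Nix_KO 10, 2, 3 and 6, against 13.56, 13.28, 13.72 and 13.11 in WT 3, 4, 5 and 6. The groups did not overlap, with Nix_KO 3 highest and WT 6 lowest. The change was 0.82 ± 0.17 (SE, n = 4 each), 1.76-fold, with limma adjusted p = 0.00857. The remaining 4 probe sets gave 1.04, 1.12, 1.21 and 0.92, with limma adjusted p between 0.00434 and 0.0364. The 3 brightest are of the kind Affymetrix marks (x_at) as open to cross-hybridisation, and those at 1.21 and 0.92 are not. The dimmest of them, with values down to 4.01 in WT, lost its call without Nix_KO 2, Nix_KO 3, WT 4 or WT 6. With log2 values under 5 set to 5 its change was 0.44 (limma adjusted p = 0.118), and with no filter its adjusted p was 0.0737. Slc25a40, the close relative of Slc25a39, averaged 6.95 ± 0.13 in Nix_KO and 6.79 ± 0.08 in WT (SD, n = 4 each) and was not called (limma adjusted p = 0.4).

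Slc25a42 exchanges coenzyme A for adenine nucleotides. It read 6.96, 6.85, 7.43 and 6.79 in Nix_KO 10, 2, 3 and 6, against 6.62, 6.19, 6.15 and 6.37 in WT 3, 4, 5 and 6. The lowest Nix_KO array lay a little above the highest WT array. The change was 0.68 ± 0.19 (SE, n = 4 each; limma adjusted p = 0.0242), and the call was lost without WT 4, WT 5 or WT 6. A further probe set of Slc25a42, under the filter, changed by 0.17 with no filter (limma adjusted p = 0.261). Over all probe sets 30.0% were called with every array, and 18.2%, 20.5% and 17.9% without WT 4, WT 5 or WT 6 in turn.

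Slc25a28, mitoferrin-2, imports iron into mitochondria outside the red cell lineage and was the only member of this class called lower. It read 8.997, 8.97, 8.93 and 8.93 in Nix_KO 10, 2, 3 and 6, against 9.50, 9.50, 9.72 and 9.44 in WT 3, 4, 5 and 6. The 4 Nix_KO arrays lay within 0.1 of each other and below all WT arrays. The change was -0.59 ± 0.13 (SE, n = 4 each), with a Nix_KO over WT ratio of 0.667 and limma adjusted p = 0.0107. The other carriers of the class had changes within 0.2 of 0: Slc25a16 0.06, the peroxisomal Slc25a17 -0.01, the S-adenosylmethionine carrier Slc25a26 -0.09 and the folate and FAD carrier Slc25a32 -0.05.

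**Figure D2:**
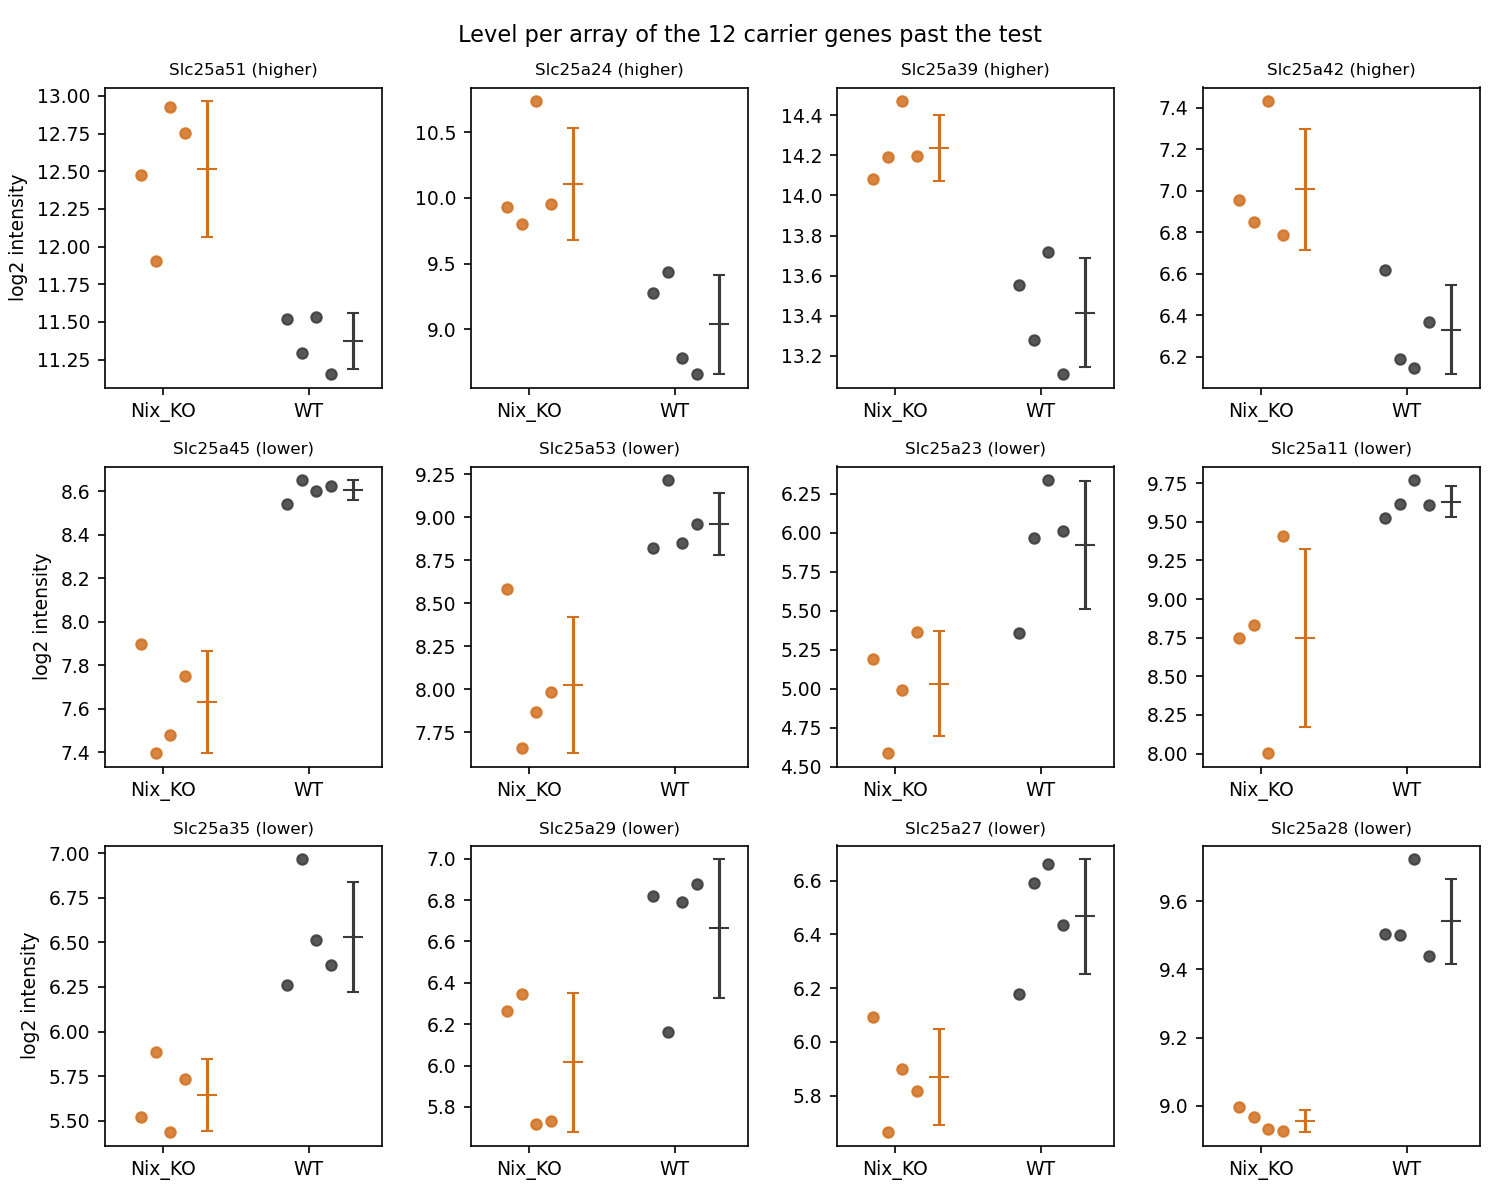
Log2 intensity in each array (points) of the 12 carrier genes called at the gene level, with the mean and SD of each genotype (n = 4), Nix_KO left and WT right, each panel on its own axis. The groups are apart in all panels other than Slc25a23 and Slc25a29.

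Among the 8 tested carriers of ADP, ATP, phosphate and pyrimidine nucleotides, Slc25a24 was higher, Slc25a23 was lower and 6 were not called. Both exchange ATP-Mg for phosphate under control of calcium. Slc25a24 read 9.93, 9.80, 10.73 and 9.96 in Nix_KO 10, 2, 3 and 6, against 9.28, 9.43, 8.78 and 8.66 in WT 3, 4, 5 and 6. Nix_KO 3, an array with pancreatic signal, was far above the rest, and the groups did not overlap. The change was 1.07 ± 0.25 (SE, n = 4 each), 2.10-fold, with limma adjusted p = 0.0135. It was 0.85 without the 3 arrays with pancreatic signal (limma adjusted p = 0.113). A further probe set of Slc25a24, under the filter, changed by 0.93 with no filter (limma adjusted p = 0.127).

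Slc25a23 read 5.19, 4.59, 4.99 and 5.36 in Nix_KO 10, 2, 3 and 6, against 5.35, 5.97, 6.34 and 6.01 in WT 3, 4, 5 and 6. The groups overlapped slightly, since Nix_KO 6 and WT 3 were nearly equal. The change was -0.89 ± 0.24 (SE, n = 4 each; limma adjusted p = 0.0229), and the call was lost without Nix_KO 2, WT 4, WT 5 or WT 6.

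The ADP/ATP carriers, which export the ATP made by oxidative phosphorylation, did not pass the test. Slc25a4 averaged 10.69 ± 0.22 in Nix_KO and 11.18 ± 0.34 in WT (SD, n = 4 each), a change of -0.49 with limma adjusted p = 0.0929. It was called without WT 5 and with array weights, where the adjusted p reached 0.0386. The 8 probe sets of Slc25a5 gave changes between -0.24 and 0.03. The phosphate carrier Slc25a3 changed by -0.13 and Slc25a25, another ATP-Mg carrier, by 0.21. The pyrimidine nucleotide carriers Slc25a33 and Slc25a36 changed by -0.14 and -0.19.

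**Figure D3:**
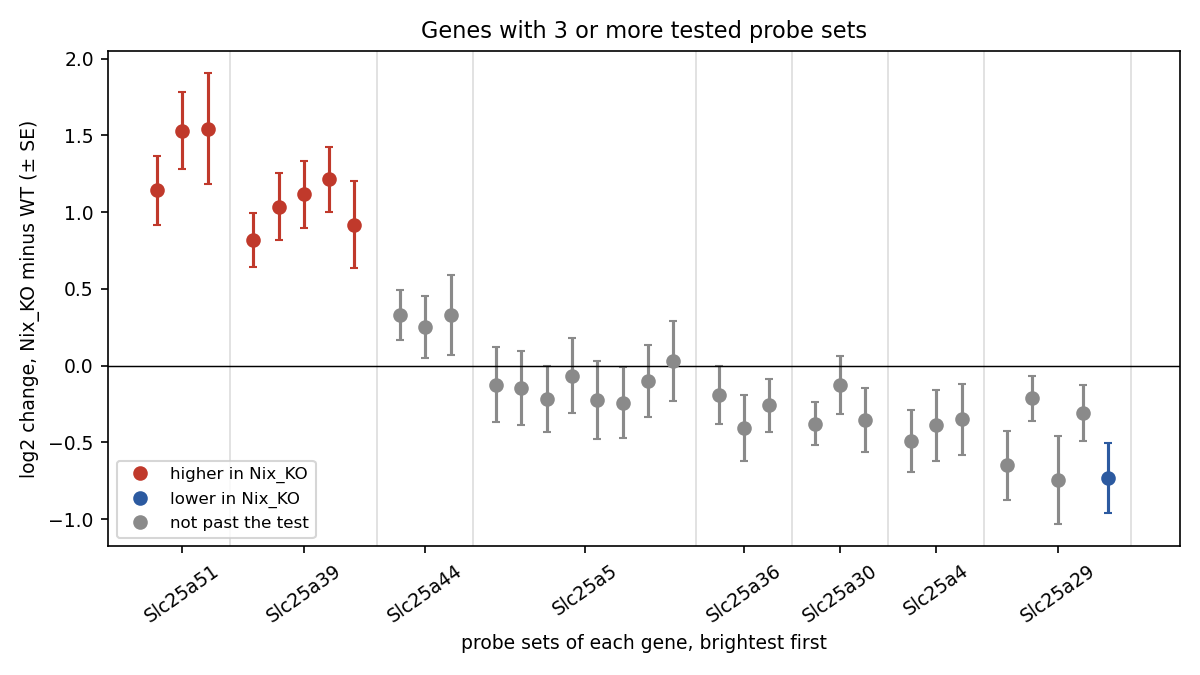
Log2 change with standard error of every tested probe set of the 8 carrier genes that have 3 or more, ordered from the brightest within each gene. All probe sets of Slc25a51 and Slc25a39 lie between 0.82 and 1.54, and those of Slc25a5 lie between -0.24 and 0.03.

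Of the 4 carriers of organic acids and acylcarnitine, 1 was called. Slc25a11 exchanges 2-oxoglutarate for malate and is part of the malate-aspartate shuttle. It read 8.75, 8.83, 8.00 and 9.41 in Nix_KO 10, 2, 3 and 6, against 9.53, 9.62, 9.77 and 9.61 in WT 3, 4, 5 and 6. All Nix_KO arrays were below WT, but they were widely spread, with Nix_KO 3 lowest and Nix_KO 6 close to WT. The change was -0.88 ± 0.26 (SE, n = 4 each; limma adjusted p = 0.0307). The call was lost on leaving out any of Nix_KO 2, WT 3, WT 4, WT 5 or WT 6. The citrate carrier Slc25a1 (-0.04), the dicarboxylate carrier Slc25a10 (0.12) and the carnitine-acylcarnitine carrier Slc25a20 (-0.24) were not called.

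Of the 5 tested amino acid carriers, 1 was called. Slc25a29 moves basic amino acids. Its brightest probe set read 6.27, 6.34, 5.72 and 5.73 in Nix_KO 10, 2, 3 and 6, against 6.82, 6.16, 6.79 and 6.88 in WT 3, 4, 5 and 6. WT 4 lay within the range of Nix_KO, so the groups overlapped. The change was -0.65 ± 0.22 (SE, n = 4 each), with limma adjusted p = 0.0379 over genes and 0.0532 over probe sets. All 5 probe sets of Slc25a29 had changes below 0 (-0.74 to -0.21), and 1 dim probe set was called, at -0.73 (limma adjusted p = 0.0371). With log2 values under 5 set to 5 its change was -0.25 (limma adjusted p = 0.249), and the call was lost without any of 6 arrays, each left out in turn. The aspartate-glutamate carrier Slc25a12 (0.23), the ornithine carrier Slc25a15 (0.09), the glutamate carrier Slc25a22 (-0.20) and the branched-chain amino acid carrier Slc25a44 (0.33) were not called.

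Slc25a27, also named UCP4 and best known from brain, was lower among the 3 genes related to uncoupling proteins. It read 6.09, 5.66, 5.90 and 5.82 in Nix_KO 10, 2, 3 and 6, against 6.18, 6.59, 6.66 and 6.44 in WT 3, 4, 5 and 6. The groups did not overlap, though Nix_KO 10 and WT 3 were close. The change was -0.60 ± 0.16 (SE, n = 4 each; limma adjusted p = 0.0231), and the call was lost without WT 4, WT 5 or WT 6. The other probe sets of Slc25a27 lay under the filter. With no filter they changed by 0.13, -0.03 and 0.01 (limma adjusted p of 0.317 to 0.951). Slc25a14 changed by 0.05, and Slc25a30 by -0.38 (limma adjusted p = 0.0714), and neither was called. Slc25a30 was called with no filter (limma adjusted p = 0.0466) and with array weights (0.0202).

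Of the 4 tested genes grouped here as less characterised, 3 were lower: Slc25a45, Slc25a53 and Slc25a35. Over all genes 24.1% were lower, and this class of 4 genes was not tested against that share. Slc25a45 read 7.90, 7.40, 7.48 and 7.75 in Nix_KO 10, 2, 3 and 6, against 8.54, 8.65, 8.60 and 8.62 in WT 3, 4, 5 and 6. The WT arrays were tightly grouped and all above Nix_KO. Its change of -0.97 ± 0.15 (SE, n = 4 each), 1.96-fold lower, had limma adjusted p = 0.0034.

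Slc25a35 read 5.52, 5.88, 5.44 and 5.73 in Nix_KO 10, 2, 3 and 6, against 6.26, 6.97, 6.51 and 6.37 in WT 3, 4, 5 and 6. The groups did not overlap. The change was -0.88 ± 0.19 (SE, n = 4 each; limma adjusted p = 0.00885). Slc25a46, a protein of the outer mitochondrial membrane, changed by 0.16 and was not called.

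The brighter probe set of Slc25a53 read 8.58, 7.66, 7.87 and 7.99 in Nix_KO 10, 2, 3 and 6, against 8.82, 9.22, 8.85 and 8.96 in WT 3, 4, 5 and 6. Its change of -0.94 ± 0.21 (SE, n = 4 each) had limma adjusted p = 0.0105, with no overlap of the groups. The dimmer probe set of the gene averaged 5.69 ± 0.24 in Nix_KO and 5.69 ± 0.43 in WT (SD, n = 4 each; limma adjusted p = 0.989). The change of the brighter minus that of the dimmer was -0.93, with exact permutation p = 0.0857 (two-sided; adjusted p = 0.429 over 5 such differences).

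The 26 member probe sets under the filter read 1.95 to 6.11. They included all probe sets of Slc25a2, Slc25a13, Slc25a18, Slc25a31, Slc25a34, Slc25a41, Slc25a47, Slc25a48 and Slc25a54, which were therefore left out of the counts above. Slc25a13, the second aspartate-glutamate carrier, read 4.47, 4.62, 4.82 and 5.23 in Nix_KO 10, 2, 3 and 6, against 4.23, 4.42, 4.43 and 4.42 in WT 3, 4, 5 and 6. Slc25a47, known from liver, read 4.85, 5.46, 5.12 and 5.03 in Nix_KO, against 4.80, 4.52, 4.40 and 4.08 in WT. Neither had overlapping groups, which also held for 39.6% of all tested genes. The groups of Slc25a31, dimmer still, did not overlap either, at 2.934 to 3.392 in Nix_KO and 2.743 to 2.930 in WT. With no filter, 1 of these 9 genes was called by limma: Slc25a47, higher by 0.66 ± 0.18 (SE, n = 4 each; adjusted p = 0.0316 over genes), which made 13 called genes of 42, 5 higher and 8 lower, against 22.1% of all 18193 genes. Slc25a13 changed by 0.41 and was not called (limma adjusted p = 0.105). Values at these dim levels depend on the background correction of GCRMA, and its part in these readings was not tested.

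Carriers of like substrate were set against each other within each array, as the log2 ratio of their brightest probe sets, in 7 pairs. An exact two-sided permutation test over 4 against 4 arrays cannot go below 0.02857, and 5 of the 7 pairs would have had to reach it for any to pass after adjustment. The pairs Slc25a13 over Slc25a12 and Slc25a18 over Slc25a22 were not tested, since a member lay under the filter. Slc25a10 over Slc25a11 differed by 1.01 between Nix_KO and WT, Slc25a39 over Slc25a40 by 0.66 and Slc25a23 over Slc25a25 by -1.10, each with exact permutation p = 0.02857 and adjusted p = 0.0667. In these pairs the 4 arrays of each genotype did not overlap. Slc25a24 over Slc25a25 (0.86) and Slc25a14 over Slc25a30 (0.42) had exact permutation p = 0.0571 (adjusted p = 0.08). Slc25a5 over Slc25a4 differed by 0.37 (exact permutation p = 0.229, adjusted p = 0.267) and Slc25a33 over Slc25a36 by 0.05 (0.971). Thus 3 pairs passed before adjustment and 0 passed after it.

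**Figure D4:**
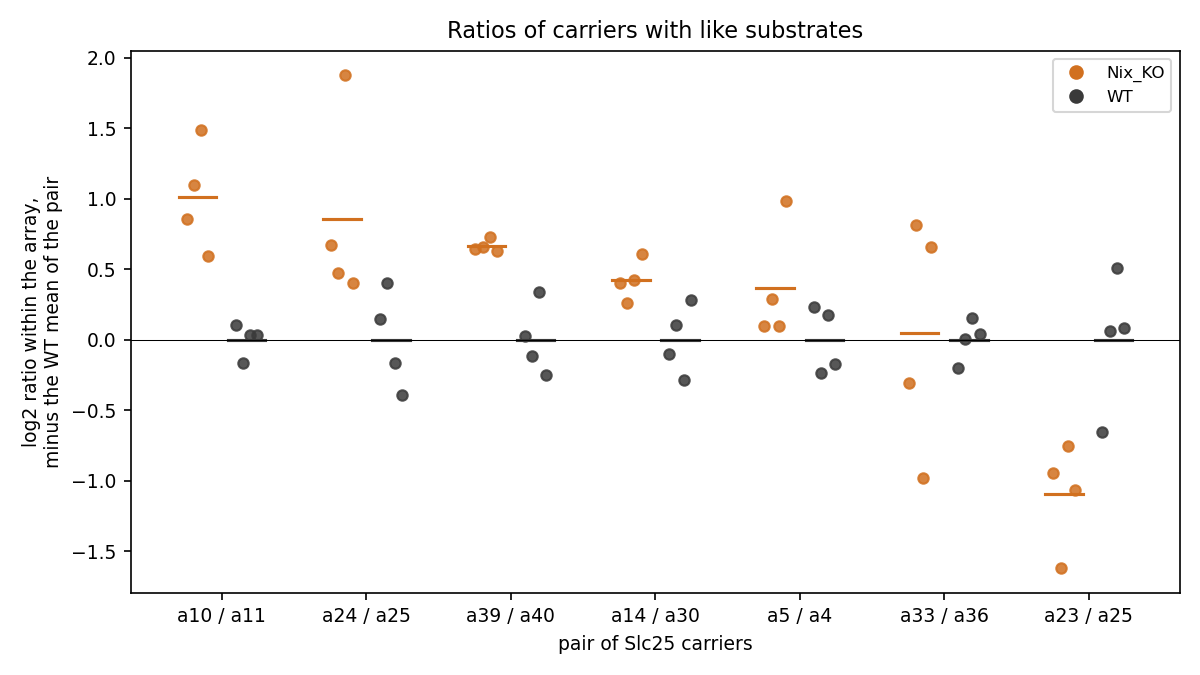
Log2 ratio of 7 pairs of carriers within each array (points), minus the WT mean of the pair, with Nix_KO left and WT right and a line at each mean. The Nix_KO mean of Slc25a10 over Slc25a11 lies 1.01 above WT and that of Slc25a23 over Slc25a25 lies at -1.10.

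Other parts of mitochondrial metabolism were read from lists chosen by textbook role. Over all genes 38.3% were called, 14.2% higher and 24.1% lower, with a median change of -0.15, as given above. Of 18 tested transporters outside the family symbol, 4 were higher and 2 lower (33.3% called), with a median change of 0.26. Without the 3 arrays with pancreatic signal 4 were called, 3 higher and 1 lower, against 15.3% of all genes. Abcb10 (2.17 ± 0.37) and Abcb6 (2.07 ± 0.32), transporters tied to haem synthesis, had limma adjusted p = 0.00229 and 0.00168 over genes (SE, n = 4 each). Tspo2, found in red cell precursors, rose by 1.99 ± 0.46 (SE; limma adjusted p = 0.0078). Mtch1, an outer membrane relative of the SLC25 carriers, was lower by the log2 change of -0.84 ± 0.16 (SE; limma adjusted p = 0.00369). Its partner Mtch2 (0.31) and the uncoupling protein Ucp3 (0.18) were not called, Ucp1 lay under the filter and Ucp2 was not analysed here.

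The enzymes that make and use the carriers' substrates were described in the same way. Of 22 tested genes of the citric acid cycle and pyruvate dehydrogenase, 5 were higher and 1 was lower (27.3% called), with a median of 0.11. Pyruvate carboxylase Pcx (1.42), Idh3a (1.01) and Dld (0.88) were higher, and malate dehydrogenase Mdh2 (-0.59) was lower. The count of called genes in this list was 3 without WT 4, 2 without WT 5, 3 without WT 6 and 1 without the 3 arrays with pancreatic signal. Of all genes 27.8%, 29.9%, 27.6% and 15.3% were called in these runs, in the same order. Of 9 tested one-carbon genes, 4 were higher and 0 lower (44.4% called), with a median of 0.63: Mthfd2 (1.20), Tyms (1.09), Mthfd1 (0.87) and Mthfd1l (0.69). The list of the malate-aspartate shuttle, glutamate and ornithine metabolism, which also held the citrate-cleaving enzyme Acly, had 8 tested genes. Odc1 (0.95) was higher and Glud1 (-0.87) and Acly (-0.81) were lower (37.5% called), with a median of -0.27. The shuttle enzymes of this list, Mdh1 (-0.15), Got1 (-0.62) and Got2 (-0.24), were not called. The count of called genes in the list was 5 without Nix_KO 6, where 37.8% of all genes were called. Without the 3 arrays with pancreatic signal 3 one-carbon genes and 2 genes of this list were called, against 15.3% of all genes. Among the carriers that serve these routes, Slc25a11 of the shuttle was lower, while the folate carrier Slc25a32 and the citrate carrier Slc25a1 were not called.

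Markers of several cell types differed between the same arrays. All 11 tested of 15 erythroid markers were higher in Nix_KO. Their mean log2 intensity was 12.34 to 12.79 in Nix_KO and 9.41 to 11.42 in WT, and their summed linear intensity was 111487 to 142483 in Nix_KO and 25772 to 61818 in WT. All 11 tested cell division genes were higher as well, at 11.06 to 11.66 in Nix_KO and 9.24 to 10.23 in WT. These stood beside the higher carriers Slc25a51, Slc25a39, Slc25a24 and Slc25a42. All 9 tested B cell markers were lower, with means of 9.81 to 10.66 in Nix_KO and 11.58 to 11.87 in WT and sums of 14335 to 25270 in Nix_KO and 45700 to 55940 in WT. Of 9 tested T cell markers 7 were lower. Of 11 neutrophil markers 10 were higher, and these also stood beside the higher carriers. Of 10 macrophage markers 3 were lower (30%, near the 24.1% of all genes) and 7 were not called. The lower B and T cell markers stood beside the 8 carriers called lower. Of the 13 pancreas markers 0 were called. The part of these marker differences in the carrier changes was not tested.

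**Figure D5:**
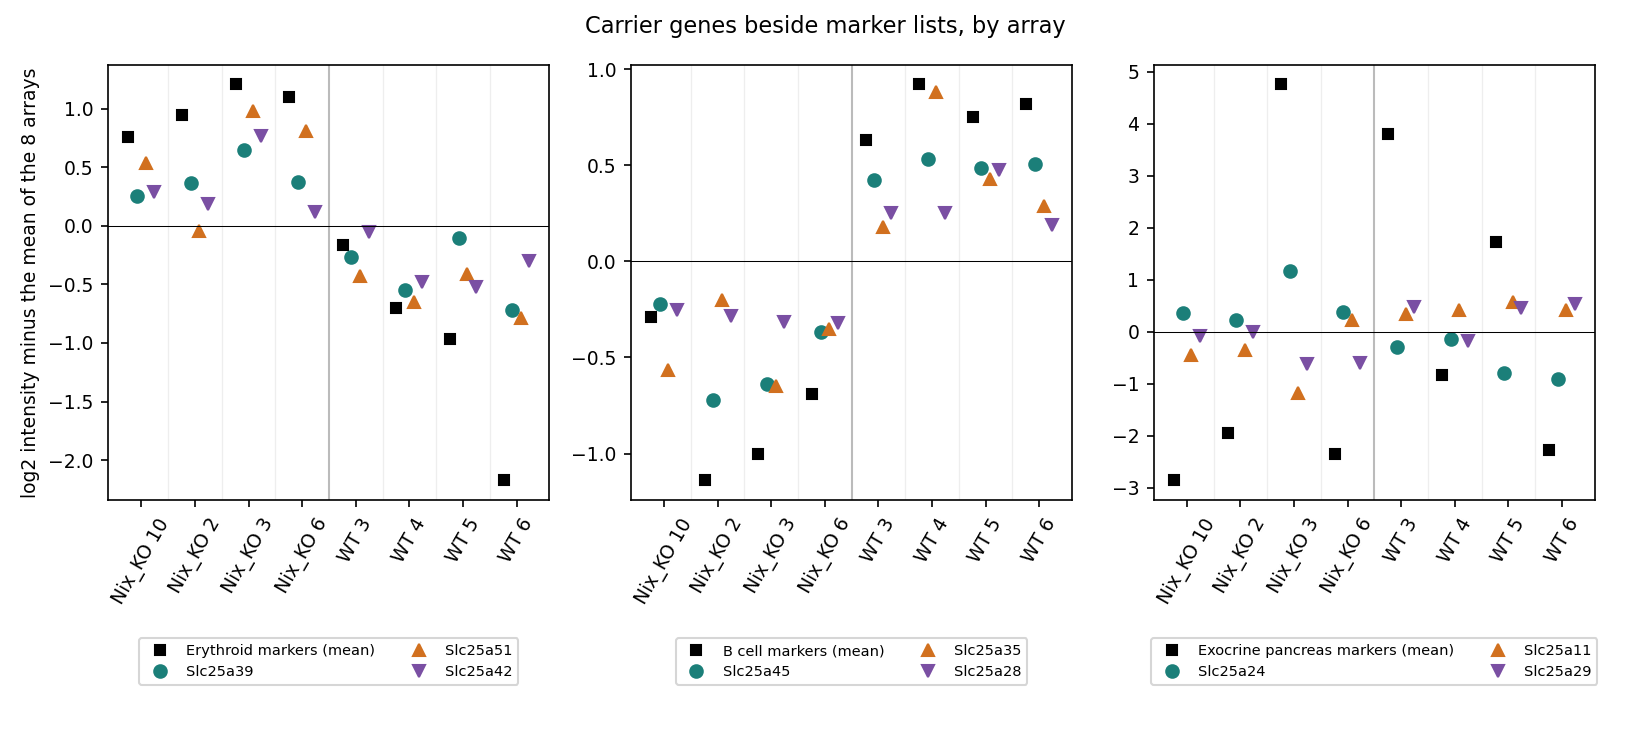
Log2 intensity minus the mean of the 8 arrays for the mean of the erythroid, B cell and exocrine pancreas markers (squares) and for 3 carriers each, by array, with Nix_KO left of WT. Slc25a39, Slc25a51 and Slc25a42 are shown with the erythroid mean, Slc25a45, Slc25a35 and Slc25a28 with the B cell mean, and Slc25a24, Slc25a11 and Slc25a29 with the pancreas mean, which is high in Nix_KO 3, WT 3 and WT 5.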

How the data were processed

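RNA of 4 Nix_KO and 4 WT spleens was hybridised to Affymetrix mouse arrays. The authors deposited 1 linear intensity per probe set and array, made with GCRMA per the submitters' processing notes, version not given in the sources used here. GCRMA corrects background, normalizes between arrays and summarises probes, and the values of dim probe sets depend on its background correction. The design had allowed for log2 values, and the deposited intensities were log2-transformed with no offset. After removal of 64 control probe sets, 22347 of 45037 passed the filter (log2 of 5 or more in 4 or more arrays). Names came from the platform annotation: 34945 probe sets had 1 gene symbol, 932 several and 9160 none. A gene was represented by its probe set of highest mean.

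Genotypes were compared with limma 3.58.1 under R 4.3.3 (lmFit and eBayes, two-sided). P-values were adjusted by Benjamini-Hochberg across every probe set, or every gene, that was tested, with a threshold of 0.05. Precision is limited by 4 arrays per group. The limma p-values set the difference of the group means against the spread between these samples. Plots used matplotlib 3.10.9 (Python 3.11.15). Alternatives were other filters, quantile normalization, centring on the median of the tested probe sets, a floor of 5, array weights, the mean of a gene's probe sets, a replicate block, each array left out in turn, and the 3 arrays with pancreatic signal left out. Genes named with their values were those with at least 1 called probe set, the members of the pairs, and the up to 4 called genes per list that ranked first by adjusted p. Ucp1, Ucp2, Ucp3, Mtch1 and Mtch2 were named with the transporters, and the rest of the family once. Pdhx and Dlst, the remaining called citric acid cycle genes, and Sfxn3 and Vdac3, the remaining called transporters, were not named by this rule. Members, lists and tests were chosen with earlier results of these data known. Differences between probe sets of Slc25a29 and Slc25a53 were added after their values were seen.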

Additional observations from a re-analysis of the deposited data

Results flagged for a closer look

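Among the 33 tested carrier genes, each with 2 groups of 4 arrays, 5 of the 66 groups held an array far from the other 3, by a gap over Dixon's critical share of the group's range. Chance flags about 1 in 20 groups. Slc25a24 read 10.73 in Nix_KO 3, an array with pancreatic signal, against 9.80 to 9.96 in the other Nix_KO arrays. Slc25a46 read 7.83 in Nix_KO 2, against 8.94 to 9.005 in the rest of Nix_KO. In WT 4, Slc25a20 read 9.34, against 8.81 to 8.85 in the other WT arrays, and Slc25a29 read 6.16, against 6.79 to 6.88. Slc25a44 read 8.69 in WT 6, against 9.12 to 9.16 in the rest of WT.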

How the results depend on the processing

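Without the 3 arrays with pancreatic signal, 4 carrier probe sets, 4 carrier genes and 1 citric acid cycle gene were called. Of all probe sets 3.09% were called there, and of all genes 15.3%. For the replicate block, numbers 3 and 6 occur in both genotypes, and the labels do not say what a number marks. The block left 1 residual degree of freedom. It gave 0 carrier probe sets (1 of all probe sets) and 4 carrier genes, against 13.1% of all genes. It also gave 3 transporters, 1 citric acid cycle gene and 1 one-carbon gene. In the list of the shuttle, glutamate and ornithine 0 genes were called. The deviations of same-numbered arrays correlated at 0.25 (number 3) and 0.15 (number 6), against up to 0.17 and 0.23 with an array of another number. A filter at log2 7 left 7 of 23 carrier genes called, with fewer genes tested, against 42.9% of all genes. Leaving out 1 array gave 12 to 19 carrier probe sets and 10 to 13 carrier genes. Over all probe sets 17.9% to 31.3% were called in these runs, and over all genes 27.6% to 38.9%. The same runs gave 5 to 8 transporters, 2 to 7 citric acid cycle genes and 3 to 5 one-carbon genes. In the list of the shuttle, glutamate and ornithine 3 to 5 genes were called. For 16 of the 18 called changes the groups did not overlap, so leaving out arrays could not turn their sign. In the runs above and the others tried, 0 of the 18 called changes turned sign. Uncalled changes that did were as follows, and the cause was not tested. Under quantile normalization they were Slc25a1 0.0084, Slc25a17 0.1145, Slc25a26 0.0322, Slc25a32 0.0587 and the dim Slc25a53 probe set 0.0721. Under median centring they were 0.0856, 0.115, 0.0367, 0.0689 and 0.117 for the same probe sets. Array weights gave Slc25a14 -0.0992 and Slc25a16 -0.0731, and the block gave Slc25a1 0.0627, Slc25a15 -0.0402, Slc25a17 0.0587 and Slc25a26 0.167. Without the 3 arrays they were Slc25a1 0.13, Slc25a5 0.0067, Slc25a14 -0.0497, Slc25a16 -0.15, Slc25a17 0.0416, Slc25a33 0.0337 and Slc25a46 -0.18. Leaving out 1 array gave ranges of -0.18 to 0.0916 for Slc25a1, -0.34 to 0.071 for Slc25a5, -0.0719 to 0.10 for Slc25a14, -0.0183 to 0.15 for Slc25a15, -0.0559 to 0.15 for Slc25a16, -0.19 to 0.099 for Slc25a17, -0.21 to 0.0002 for Slc25a26, -0.13 to 0.0901 for Slc25a32, -0.36 to 0.079 for Slc25a33, -0.0181 to 0.45 for Slc25a46 and -0.17 to 0.176 for the dim Slc25a53 probe set. The difference of Slc25a33 over Slc25a36 ranged from -0.21 to 0.389. Signal near the background limits the 8 tested probe sets with values under 5, of which 3 were called.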
